A study of Homo sapiens with 9 samples.

Results

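The wild-type CTCF and RAD21 ChIP-nexus libraries of HEC-1-B cells, an established human uterine adenocarcinoma line, were used to measure how far apart the summits of the 2 proteins lie at their common sites. Each CTCF summit on chromosomes 1 to 22 and X was paired with the nearest RAD21 summit within 200 bp. This gave 40786 pairs among 52982 CTCF and 48906 RAD21 peaks, out of 354101 peaks in the 9 lists of the series. ChIP-nexus digests immunoprecipitated DNA with exonucleases up to the crosslinked protein, so that a peak's summit locates the protein more narrowly than fragment ends of sheared chromatin do. Positions are those of the human build hg19.

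CTCF is a zinc finger protein that binds a long, non-palindromic DNA motif. RAD21 is the kleisin subunit that closes the cohesin ring, which extrudes DNA loops and is halted where it meets CTCF on DNA. The N-terminal part of CTCF contacts cohesin, so that the direction of the motif decides from which side extruding cohesin is stopped. A genome of build hg19 was not used here, so motif directions, sequences and gene annotations are not given. Sides are given along the chromosome, as higher or lower coordinate.

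Each group held 1 library. The CTCF and RAD21 libraries that were paired came from HEC-1-B cells labelled wild type, and so did the ZNF143 library used beside them. Other CTCF and RAD21 libraries came from HEC-1-B cells labelled ZNF143KO, a knockout of the factor ZNF143. No treatment is given for these 5 libraries. One more CTCF library came from CTCF-AID cells, in which CTCF carries a degron that auxin (IAA) acts on, at 0 h of IAA. Neither the number of cultures behind a library nor whether a derived line is 1 clone is given in the sources used here. With 1 library a group there is no replicate check and no test between conditions. Intervals below are exact binomial 95% intervals for shares, and exact order-statistic 95% intervals for medians. They cover counting error over sites only.

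Summit read counts, solved from the deposited ratio and −log10 p of each peak, had a median of 20 in the CTCF list (quartiles 11 and 32) and 18 in the RAD21 list (9 and 30). They ended at 54 reads for CTCF and 42 for RAD21, and 0.255% of CTCF peaks and 1.17% of RAD21 peaks stood at that highest count. The lowest −log10 q was 3.004 in the CTCF list and 3.002 in the RAD21 list. Total read depth is unknown. Nearly all strong sites of either protein carried the other. As a background for all shares below, 77.0% of CTCF summits (76.6 to 77.3) had a RAD21 summit within 200 bp, and 83.5% of RAD21 summits (83.1 to 83.8) had a CTCF summit within 200 bp. The pairs used 40603 different RAD21 summits. Only 178 of these were nearest to more than 1 CTCF summit, with up to 3 CTCF summits each, and 99.5% of pairs (99.48 to 99.61) were each other's nearest summits.

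The summits of CTCF and RAD21 lay close together but seldom on the same base. The median distance was 15 bp (15 to 15), the quartiles were 6 and 29 bp, and the 90th and 99th percentiles were 42 and 67 bp. Of the pairs, 2.23% (2.09 to 2.38) had both summits on 1 base, 38.03% lay within 10 bp, 61.8% within 20 bp and 96.4% within 50 bp. A distance over 50 and up to 100 bp was found in 3.03% of pairs (2.87 to 3.20) and one over 100 bp in 0.554% (0.484 to 0.631). The 200 bp limit fell in a flat stretch: 21 pairs lay over 180 and up to 190 bp apart and 23 over 190 bp, while 25 CTCF summits had their nearest RAD21 summit over 200 and up to 210 bp away and 24 over 210 and up to 220 bp.

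Counted over all RAD21 summits around CTCF summits, the density was 389 summits per bp within 50 bp and 13.6 from there to 100 bp. It was 3.51 between 100 and 200 bp, 3.60 between 200 and 500 bp and 2.68 between 500 and 1000 bp. The density beyond 100 bp was thus close to that of the surrounding sequence.

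The higher and lower sides of the chromosome were used almost equally. RAD21 lay at the higher coordinate in 19729 pairs and at the lower in 20146, a share of 49.5% (48.99 to 49.97) at the higher side. The median signed offset, RAD21 minus CTCF, was 0 bp and its SD over pairs was 26.5 bp. On single chromosomes the share at the higher side ran from 47.5% (44.8 to 50.2) on chromosome 16 to 52.2% (49.4 to 54.9) on chromosome 15. Chromosome 1, at 48.1% (46.5 to 49.8), was the 1 chromosome of the 23 whose interval did not hold 50%. In the 10% of pairs with the lowest RAD21 signal the share was 46.9% (45.3 to 48.4), and in the 10% with the highest it was 49.2% (47.6 to 50.8).

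**Figure D1:**
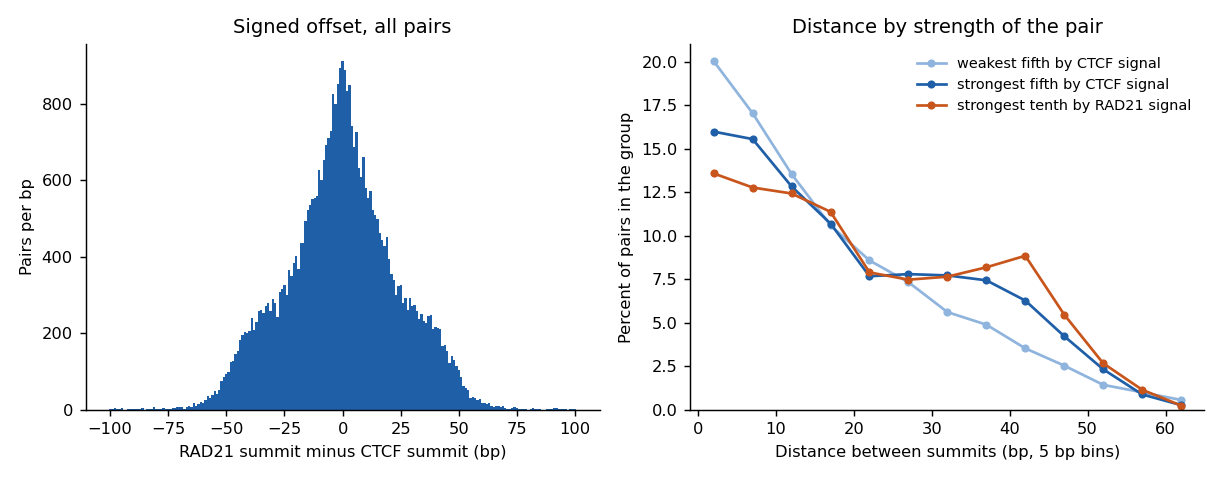
Left, number of pairs at each signed offset of the RAD21 summit from the CTCF summit, in bp. Right, percent of pairs in 5 bp bins of distance for the weakest and strongest 20% of pairs by CTCF signal and the strongest 10% by RAD21 signal; the curve of the last group has 7.48% at 25 to 29 bp and 8.85% at 40 to 44 bp, where the weakest 20% by CTCF signal has 3.53%.

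The distribution had a sharp centre and a shoulder on each side. From 10 bp bins at 0 to 9 bp with 18.5% of pairs, the share on the higher side fell to 12.3%, 7.76%, 6.01% and 4.01% in the next bins and then to 1.24% at 50 to 59 bp. The lower side had 18.1%, 11.9%, 7.75%, 6.05% and 3.74% in the bins from 1 to 50 bp, and 1.118% at 51 to 60 bp. The shoulder at 30 to 50 bp grew with the strength of the site. In the 20% of pairs with the highest CTCF signal, 1262 pairs lay at 20 to 29 bp and 1237 at 30 to 39 bp, a ratio of 0.980 (0.906 to 1.06). In the 20% with the lowest CTCF signal the numbers were 1298 and 857, a ratio of 0.660 (0.605 to 0.720). Such distances also occurred between libraries of RAD21 itself. Wild-type and knockout RAD21 summits lay 30 bp or more apart at 11.4% of sites, against 24.4% for CTCF and RAD21. The part of this in the shoulder was not tested.

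Ranked by RAD21 signal, the ratio was 1.05 (0.971 to 1.14) in the strongest 20% and 0.565 (0.515 to 0.619) in the weakest. The 10% of pairs with the highest RAD21 signal had a second maximum. Its count fell from 554 pairs at 0 to 4 bp to 305 at 25 to 29 bp, came to 361 at 40 to 44 bp and fell to 109 at 50 to 54 bp. The second maximum was not tested. The RAD21 summits of this group had a median of 38 reads, where the list ended at 42. With peak midpoints in place of summits, the ratio of the 2 zones in the strongest 20% by CTCF signal was 0.424, in place of 0.980.

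Distance followed the signal of RAD21 more than that of CTCF, but only weakly. Its Spearman rank correlation across 40786 pairs was 0.135 with RAD21 signal and 0.0599 with CTCF signal. Signal, the authors' fold enrichment at the summit, was used to rank and describe peaks within a list, and values of the 2 lists were not compared with each other. In the 10 equal groups of pairs by CTCF signal, the median distance was 15 bp (14 to 15) in the weakest, 14 bp in the second to sixth groups, and 17 bp (17 to 18) in the strongest. In the groups by RAD21 signal it was 13 bp (13 to 14) in the weakest, 12 bp (12 to 13) in the second and 19 bp (19 to 20) in the strongest. The upper quartile moved further, from 26 bp in the weakest RAD21 group and 24 bp in the second to 36 bp in the strongest. The share of pairs at 30 bp or more was 16.6% in the second RAD21 group and 34.5% in the strongest. The strongest group by RAD21 signal had a median of 38 RAD21 reads at the summit, where the list ended at 42. The strongest group by CTCF signal had 43 CTCF reads, where the list ended at 54. The part of these limits in the distance was not tested.

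The signals of the paired peaks went together, with a Spearman rank correlation of 0.694 across 40786 pairs, which share 2 libraries. Splitting one signal while holding the other showed the same order. Among pairs in the 3 strongest CTCF groups, the median distance was 12 bp (11 to 13) with RAD21 in its 3 weakest groups, 14 bp (14 to 15) in the middle 4 and 19 bp (18 to 19) in the 3 strongest. Among pairs in the 3 strongest RAD21 groups, it was 19 bp (16 to 21) with weak CTCF, 18 bp (17 to 19) with middle CTCF and 19 bp with strong CTCF. So at a given CTCF strength the distance grew with RAD21, and at high RAD21 signal it hardly moved with CTCF.

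**Figure D2:**
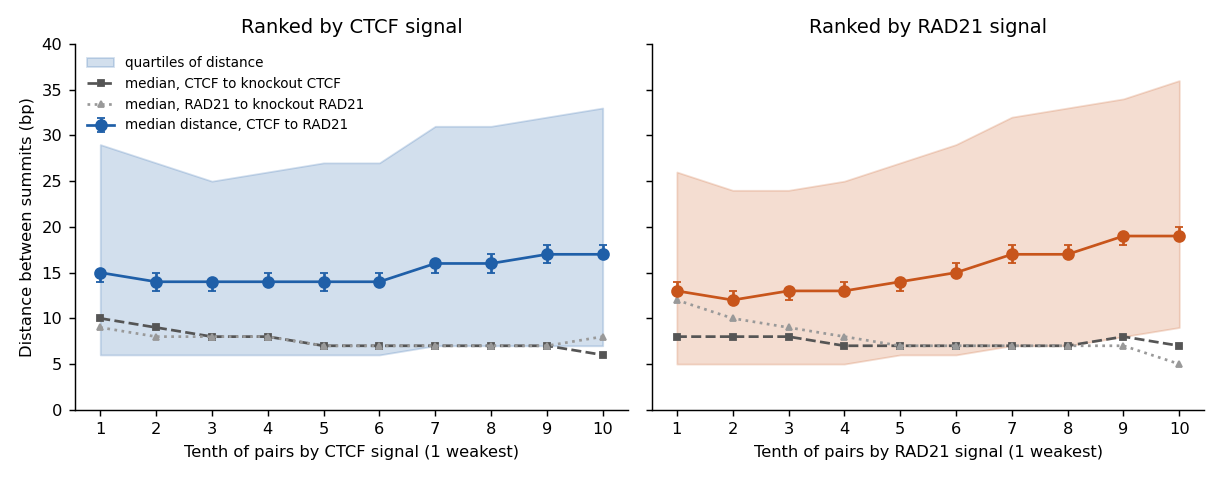
Distance between CTCF and RAD21 summits in bp across 10 groups of pairs ranked by CTCF signal (left) and by RAD21 signal (right). Points are medians with 95% intervals, shaded bands are quartiles, and the grey lines are median distances between wild-type and knockout summits of 1 factor; on the right the RAD21 line goes from 12 down to 5 bp while the CTCF to RAD21 median goes from 13 to 19 bp.

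Part of any distance is the uncertainty of a summit, which libraries of the same protein measure. At the pairs, CTCF summits of wild-type and ZNF143 knockout cells lay a median 7 bp apart (quartiles 3 and 15), and RAD21 summits of these cells 8 bp apart (3 and 17). CTCF summits of wild-type and CTCF-AID 0 h cells lay 11 bp apart (5 and 20). A distance of 30 bp or more was found at 6.43% of sites (6.19 to 6.67) for CTCF against knockout CTCF, 9.71% (9.37 to 10.1) for CTCF against CTCF-AID CTCF and 11.4% (11.1 to 11.7) for RAD21 against knockout RAD21. It was found at 24.4% (23.9 to 24.8) for CTCF against RAD21 in wild type. The share was 21.1% for knockout CTCF against knockout RAD21 and 18.9% for CTCF-AID CTCF against knockout RAD21. These shares rest on different sets of sites. At the 28175 sites with summits of all these libraries, 40.3% of wild-type CTCF and RAD21 summits lay over 20 bp apart. For CTCF against knockout CTCF, CTCF-AID CTCF, and RAD21 against knockout RAD21 it was 13.9%, 22.9% and 18.7%. Distances between the proteins were thus larger than those between libraries of either protein, which include any difference between the lines.

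Where a protein's own signal was stronger, its summit moved less between wild-type and knockout cells, yet the CTCF to RAD21 distance was larger. From the weakest to the strongest group by RAD21 signal, the median displacement of RAD21 summits between wild-type and knockout cells fell from 12 to 5 bp, while the CTCF to RAD21 distance went from 13 to 19 bp. In the groups by CTCF signal, the displacement of CTCF summits fell from 10 to 6 bp. Other displacements hardly changed from the weakest to the strongest group. CTCF to knockout CTCF went from 8 to 7 bp by RAD21 signal, and RAD21 to knockout RAD21 from 9 to 8 bp by CTCF signal. CTCF to CTCF-AID CTCF went from 10 to 11 bp by RAD21 signal and from 11 to 10 bp by CTCF signal.

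The side on which RAD21 lay was found again in libraries that the pairing had not used. Summits of the other lines were those nearest to the wild-type summit of the same protein. The knockout RAD21 summit and the CTCF-AID 0 h CTCF summit share no library with the wild-type pair, and 28238 pairs had both within 200 bp. Where several summits lie close together, this choice by wild-type position can itself favour agreement. Where neither offset was 0, RAD21 lay on the same side as in wild type at 18590 of 26956 sites, 69.0% (68.4 to 69.5). With both summits from knockout cells it was 70.6% (70.1 to 71.04) of 37505 sites. The share of 69.0% is weighted to strong pairs. Its sites included 813 of the 4079 pairs in the weakest of 10 groups by RAD21 signal, and 3915 of 4079 in the strongest. Agreement grew with the wild-type distance, from 55.6% (54.3 to 57.0) at 1 to 5 bp to 69.9% (68.8 to 71.04) at 11 to 20 bp and 79.4% (77.7 to 81.0) at 41 to 50 bp. It was 68.6% (60.2 to 76.1) over 100 bp, from 140 sites.

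Measured in the 2 other lines along the wild-type direction, the offset was smaller than in wild type. Its median was 2 bp at sites 1 to 5 bp apart in wild type, 8 bp at 11 to 20 bp, 15 bp at 31 to 40 bp and 16 bp at 41 to 50 bp. Groups of sites formed by an extreme wild-type distance include summits displaced by error, and the values from the other lines were not used to form them. Agreement also grew with strength, from 54.5% (50.99 to 57.95) in the weakest group by RAD21 signal to 79.03% (77.7 to 80.3) in the strongest. In that strongest group, 83.3% (81.1 to 85.4) of 1186 sites at 31 to 50 bp kept their side, and 68.4% (65.6 to 71.2) of 1080 sites at 1 to 10 bp did.

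**Figure D3:**
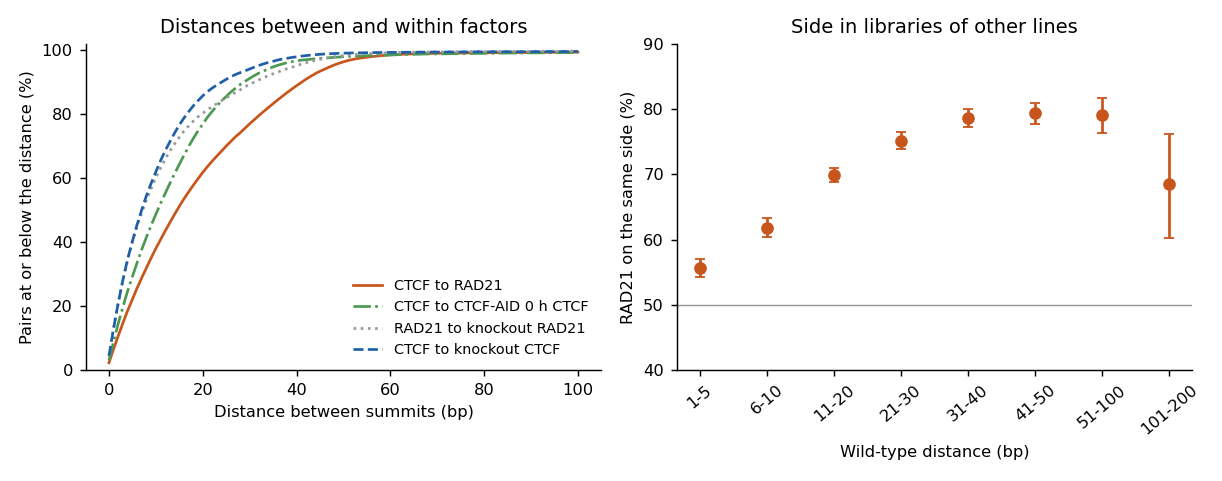
Left, cumulative percent of pairs by summit distance in bp for CTCF to RAD21 and for wild-type to knockout or CTCF-AID summits of 1 factor; at 20 bp the CTCF to RAD21 curve stands at 61.8%, below the other 3. Right, percent of sites (95% intervals) where RAD21 lay on its wild-type side in libraries of the other lines, by wild-type distance in bp; it climbs from 55.6% to 79.4%, and the line marks 50%.

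RAD21 peaks reached past CTCF peaks mainly on the side of the RAD21 summit, and the edges on the other side hardly differed. With the side of RAD21 taken from the 2 other lines, the wild-type RAD21 peak reached past the CTCF peak by a median 13 bp (13 to 13) on the RAD21 side and by 2 bp (1 to 2) on the other side, at 27554 sites. RAD21 reached further at 68.2% (67.7 to 68.8) of edges on its own side and at 52.4% (51.8 to 53.0) on the other. Of all pairs, 99.2% had overlapping peaks, and in 91.7% (91.4 to 91.9) each summit lay inside the other's peak. The midpoints of paired peaks lay a median 12 bp apart (quartiles 5 and 20).

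Single sites show what these numbers mean. Offsets given for the knockout and with the CTCF-AID summit both use the knockout RAD21 summit, so they are not separate measurements of RAD21. The 3 pairs with the highest CTCF signal had distances of 3, 20 and 7 bp. The first was at 107183266 to 107183373 of chromosome 14, with a CTCF signal of 33.8 (49 reads at the summit) and a RAD21 signal of 15.9 (18 reads). Its RAD21 summit was 3 bp below the CTCF summit in wild type, 6 bp above in the knockout and 4 bp below with the CTCF-AID summit, so no side was kept.

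The third was at 35420148 to 35420305 of chromosome 22, where RAD21 lay 7 bp below CTCF in wild type, 32 bp below in the knockout and 11 bp below with the CTCF-AID summit. Here all 3 offsets pointed to the lower side. At the pair of highest RAD21 signal, with the CTCF peak at 107315394 to 107315488 of chromosome X, they were 15, 38 and 34 bp below, again on 1 side. The RAD21 signal there was 30.2, from 40 reads. At the next pair by RAD21 signal, the CTCF peak was at 69969279 to 69969382 of chromosome 3. RAD21 was 11 bp above CTCF in wild type, 9 bp below in the knockout and 4 bp below with the CTCF-AID summit. The remaining 2 of these 6 pairs did not keep their side either. RAD21 lay 20 bp below CTCF in wild type, 15 bp below in the knockout and 3 bp above with the CTCF-AID summit at 190833478 to 190833597 of chromosome 4. It lay 5 bp below in wild type and 1 bp above in both other comparisons at 21498140 to 21498250 of chromosome X. Of the 6 pairs of highest signal, 2 thus had RAD21 on 1 side in all 3 comparisons, of which 2 share the knockout RAD21 summit.

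The strongest pairs at least 50 bp apart kept their side in the knockout and with the CTCF-AID summit, both measured to the knockout RAD21 summit. At 136835009 to 136835163 of chromosome 5, RAD21 lay 54 bp below CTCF in wild type, 50 bp below in the knockout and 35 bp below with the CTCF-AID summit. Both peaks were strong, with 51 reads at the CTCF summit and 38 at the RAD21 summit. A second such site on this chromosome, at 177591290 to 177591455, had offsets of 52, 29 and 34 bp, all below. On the higher side, the CTCF peak at 99984872 to 99984997 of chromosome 14 had RAD21 56 bp above in wild type. It was 3 bp above in the knockout and 22 bp above with the CTCF-AID summit. That at 1762106 to 1762224 of chromosome 12 had it 55, 21 and 30 bp above. Single summits also differed between lines at these sites. The knockout CTCF summit lay 24 and 20 bp nearer to the wild-type RAD21 summit at the last 2 sites, and 21 bp nearer at the second site of chromosome 5. The knockout RAD21 summit on chromosome 14 lay 29 bp nearer to the wild-type CTCF summit, and that on chromosome 12 lay 14 bp nearer.

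RAD21 peaks were wider than CTCF peaks at most pairs, and the ratio of widths followed the RAD21 signal. Paired CTCF peaks had a median width of 104 bp (quartiles 75 and 131) and paired RAD21 peaks 116 bp (74 and 156). The median ratio of RAD21 to CTCF width within a pair was 1.11 (1.109 to 1.1196), with quartiles of 0.848 and 1.41, and the RAD21 peak was the wider in 60.8% (60.3 to 61.3) of pairs. By RAD21 signal the median ratio was 0.700 in the weakest of 10 groups and 1.25 in the strongest. By CTCF signal it was 1.17 in the weakest and 1.11 in the strongest. It was 1.69 at the 342 pairs of weak CTCF and strong RAD21, and 0.581 at the 507 pairs of strong CTCF and weak RAD21. The CTCF peak lay wholly within the RAD21 peak in 36.9% of pairs, and the reverse held in 21.7%.

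Peak width grows with the reads in a peak, so widths were also compared at equal summit counts. With 5 to 9 reads at both summits the medians were 44 bp for CTCF and 47 bp for RAD21, a median ratio of 1.04. With 20 to 24 reads they were 97 and 120 bp, a ratio of 1.19, and with 35 to 39 reads 134 and 172 bp, a ratio of 1.28 over 1405 pairs. RAD21 peaks were thus wider at matched counts, by a ratio that grew with the counts. Equal counts are not equal places in the 2 lists, whose highest counts were 42 for RAD21 and 54 for CTCF. The class of 35 to 39 reads stood nearer to the RAD21 limit, and the part of this in the ratio was not tested. The narrowest peaks of the lists were 27 bp for CTCF and 21 bp for RAD21, so RAD21 peaks were wider although their shortest peak was the narrower.

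At equal counts the median summit distance was 16 bp at 5 to 9 reads, 13 bp at 15 to 19 reads and 21 bp at 35 to 39 reads. The median displacement between wild-type and knockout summits at 5 to 9 reads was 10 bp for CTCF and 12 bp for RAD21. It was 7 bp for either protein both at 15 to 19 and at 35 to 39 reads. At 35 to 39 reads 37.2% of pairs lay 30 bp or more apart, against 18.5% at 15 to 19 reads. The class of 35 to 39 reads again stood nearer to the highest RAD21 count than to the highest CTCF count. The part of this in the distance was not tested.

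**Figure D4:**
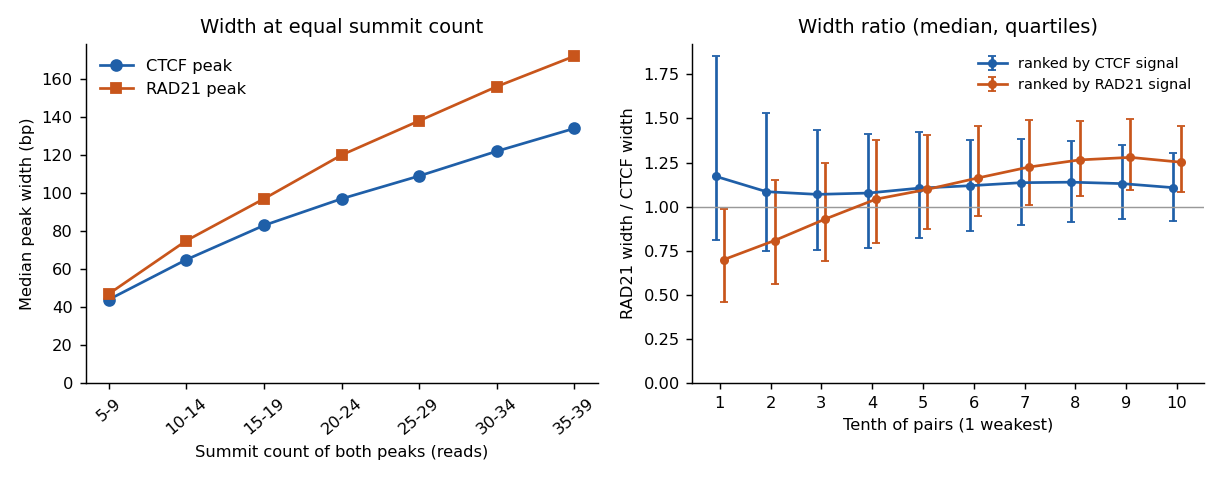
Left, median width in bp of CTCF and RAD21 peaks of pairs whose summit counts fall in the same 5-read class; RAD21 peaks are wider in each class, from 47 against 44 bp at 5 to 9 reads to 172 against 134 bp at 35 to 39 reads. Right, width ratio of RAD21 to CTCF across 10 groups of pairs, median with quartiles; ranked by RAD21 signal it climbs from 0.700 to 1.28 in the ninth group, and ranked by CTCF signal it stays between 1.07 and 1.17.

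The width ratio and the paired share differed between chromosomes. The median ratio was below 1 on chromosome 16 (0.963) and chromosome 19 (0.972), and was highest on chromosome 4 (1.27) and chromosome X (1.20). The balance of reads went along with it. Paired summits had a median of 29 CTCF and 20 RAD21 reads on chromosome 16, 33 and 20 on chromosome 19, 18 and 19 on chromosome 4, and 18 and 18 on chromosome X. Its part in the ratio was not tested. The median summit distance was between 13 bp (chromosome 21) and 17 bp (chromosomes 17 and 22). The share of CTCF summits with a RAD21 partner was lowest on chromosome 16, at 71.2% (69.1 to 73.2), and highest on chromosome X, at 84.8% (83.1 to 86.5).

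ZNF143, a zinc finger factor often found at CTCF sites, overlapped 64.1% (63.6 to 64.5) of paired CTCF peaks. Its presence went with a median distance of 16 bp (quartiles 6 and 31) and its absence with 14 bp (6 and 26). ZNF143 was at 15.004% of pairs in the weakest and at 99.6% in the strongest group by CTCF signal, so its presence and strength cannot be told apart in these medians. The ZNF143 summit showed little preference for the RAD21 side. Compared without a shared library, as wild-type ZNF143 against CTCF-AID CTCF and wild-type RAD21 against knockout CTCF, it lay on the RAD21 side at 51.6% (50.9 to 52.2) of 22484 sites, a median 1 bp towards RAD21.

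The few distant pairs differed with their range of distance. Over 50 and up to 100 bp, 1236 pairs had a median CTCF signal of 17.0 and RAD21 signal of 18.3, against 17.5 and 16.3 in the same lists for pairs within 50 bp, and 93.9% (92.4 to 95.1) had overlapping peaks. Over 100 bp, 226 pairs had signals of 7.97 and 8.91, 30.97% (25.01 to 37.4) had overlapping peaks and 31.4% were mutually nearest. Another CTCF summit lay within 500 bp at 1934 pairs. Of these, 13.4% (11.95 to 15.05) were over 50 bp apart, against 3.09% (2.92 to 3.27) of the other 38852 pairs.

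CTCF sites without RAD21 were mostly weak. The 12196 unpaired CTCF peaks had a median signal of 7.98 (10 reads) and width of 47 bp, and the paired ones 17.5 (25 reads) and 104 bp. The paired share climbed from 37.8% (36.5 to 39.1) in the weakest 10% of CTCF peaks by signal to 83.2% (82.2 to 84.2) in the fifth of 10 groups and 99.9% (99.78 to 99.97) in the strongest. The 4 weakest groups held 87.5% (86.9 to 88.04) of the unpaired peaks. Unpaired sites were rarely close misses: a peak of RAD21 overlapped 4 of the 12196, and the nearest RAD21 summit lay a median 13862 bp away (quartiles 4822 and 32334).

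RAD21 sites without CTCF were also mostly weak. The 8087 unpaired RAD21 peaks had a median signal of 6.61 (7 reads) and width of 41 bp, against 16.3 (22 reads) and 116 bp for paired ones. The paired share went from 45.8% (44.4 to 47.2) in the weakest 10% of RAD21 peaks to 97.3% in the sixth group and 100% (99.92 to 100) in the strongest. In the 3 strongest groups 3 of 14672 RAD21 peaks had no CTCF summit within 200 bp, whereas 70 of 15895 CTCF peaks in the corresponding groups had no RAD21 summit.

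**Figure D5:**
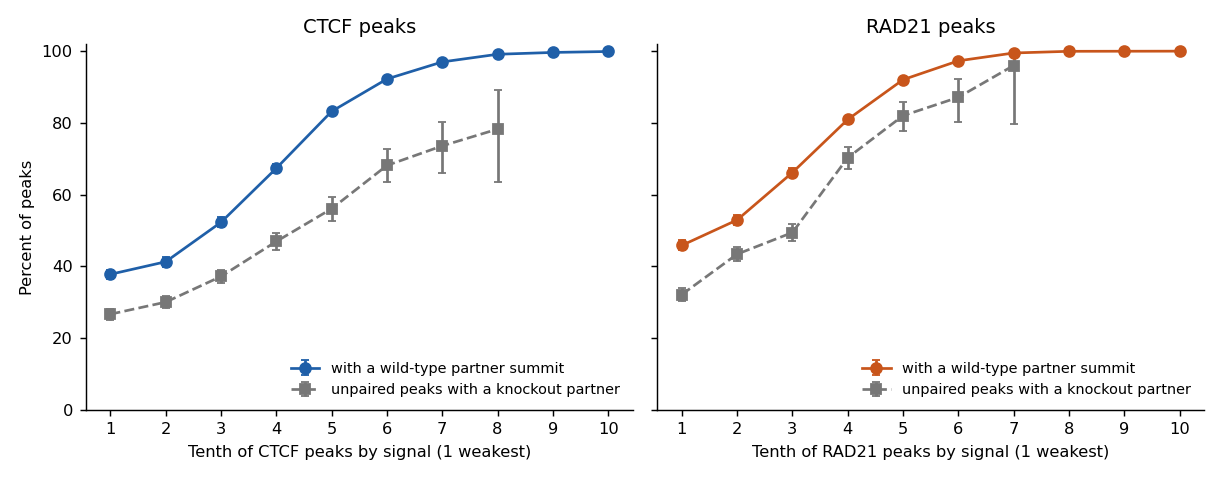
Percent of peaks with a wild-type partner summit within 200 bp across 10 groups of CTCF peaks (left) and RAD21 peaks (right) ranked by signal, with 95% intervals; it climbs from 37.8% and 45.8% to nearly all. Dashed lines show, among wild-type unpaired peaks in groups with at least 20 of them, the percent with a partner summit in knockout cells.

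Many unpaired sites had a partner in another library. In the knockout lists 37.03% (36.2 to 37.9) of unpaired CTCF peaks had a RAD21 summit within 200 bp, and 46.8% (45.7 to 47.9) of unpaired RAD21 peaks had a CTCF summit. For paired peaks the shares were 97.7% and 98.7%. Where such a partner was found, its distance was a median of 12 bp (12 to 13) from the unpaired CTCF summits and 14 bp (13 to 15) from the unpaired RAD21 summits, beside the 15 bp of the wild-type pairs. The knockout lists are longer, with 63420 CTCF and 56861 RAD21 peaks, and hold only peaks with a −log10 q of at least 5. The part of depth, threshold and genotype in these partners cannot be told apart.

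Other unpaired CTCF sites had CTCF and no RAD21 in the knockout as well. In the knockout, 44.3% (43.4 to 45.2) of unpaired CTCF peaks had a CTCF summit and no RAD21 summit within 200 bp, and 18.7% (18.0 to 19.4) had neither. Of unpaired RAD21 peaks, 27.4% (26.4 to 28.3) had RAD21 and no CTCF in the knockout, and 25.9% (24.9 to 26.8) had neither. ZNF143 overlapped 5.64% (5.24 to 6.07) of all unpaired CTCF and 8.35% (7.75 to 8.97) of all unpaired RAD21 peaks. For CTCF this share went with strength: it was 2.67% (2.15 to 3.28) in the weakest group by signal, and 52 of the 70 unpaired peaks in the 3 strongest groups, 74.3% (62.4 to 83.99), overlapped ZNF143. At like signal, in the sixth CTCF group, it overlapped 22.9% (18.9 to 27.2) of unpaired and 61.8% (60.5 to 63.2) of paired peaks. In the fifth RAD21 group the shares were 5.40% (3.37 to 8.13) and 46.7% (45.2 to 48.2).

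The strongest unpaired sites had partners in the knockout. The CTCF peak at 35816854 to 35817008 of chromosome 9 had a signal of 27.7 from 52 reads, near the highest count of the list, and its nearest wild-type RAD21 summit was 2314 bp away. A knockout RAD21 summit lay 4 bp from it. The next CTCF peaks, on chromosome 22 from 22863131 to 22863277 and on chromosome 6 from 41889114 to 41889250, had signals of 26.9 and 25.8 and knockout RAD21 summits 30 and 17 bp away. All 3 had a wild-type ZNF143 summit within 26 bp. Of the 70 unpaired CTCF peaks in the 3 strongest groups, 55 had a knockout RAD21 summit within 200 bp and 15 had none.

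The strongest RAD21 peaks without CTCF were on chromosome X from 40327722 to 40327835, chromosome 20 from 216690 to 216774, and chromosome 17 from 22033269 to 22033315. The 3 signals were 22.96, 21.7 and 19.7, from 29, 26 and 22 reads. Knockout CTCF summits lay 1, 15 and 5 bp from them, and the nearest wild-type ZNF143 summits lay 2427, 16382 and 12348 bp away.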

How the data were processed

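ChIP-nexus peak lists were used as deposited by the authors, 1 per library, in the narrow-peak layout. Per the submitters' processing notes, cutadapt 2.10, Bowtie2 2.3.5.1, SAMtools 1.12, MACS2 2.2.7.1 and deepTools were used and the build was hg19. Their settings, and whether cultures were pooled, are not given in the sources used here. The signal deposited by the authors is a ratio, the peak caller's fold enrichment at the summit. The authors also deposited −log10 p and −log10 q values. The other deposited columns used are start, end and summit. Groups were taken from sample titles, and 3 CTCF-AID lists were not used. Peaks on chromosome Y and on mitochondrial and unplaced sequences were left out.

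A summit is the start plus the deposited summit distance. Summits were paired within 200 bp, ties going to the lower coordinate. Summit counts are the whole numbers k that give the ratio (k + 1)/(background + 1) and the Poisson −log10 p within 0.002, which held for 100% of peaks in both wild-type lists. The form of the ratio is an assumption. Counts are not library totals. A peak counted as overlapping with at least 1 bp in common. Groups by signal are 10 equal groups.

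Named sites were, outside chromosome 8, the 3 pairs of highest CTCF and of highest RAD21 signal, the 2 strongest pairs per side at 50 bp or more, and the 3 strongest unpaired peaks of each factor. Not all are described. The rule, the pairs and the measures were chosen with earlier results of these data known. The ratio of distance zones was chosen after the distribution was seen. Alternatives were other windows, thresholds, positions and subsets of pairs. Code was tested on simulated data. Pairing and intervals were computed in Python 3.11.15 with scipy 1.17.1, pandas 2.3.3 and numpy 2.4.6, and plots with matplotlib 3.10.9.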

Additional observations from a re-analysis of the deposited data

Results flagged for a closer look

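Peaks outside chromosomes 1 to 22 and X were in none of the comparisons, and both lists held pairs there, more than the 3 that would be allowed by a count of 0. HEC-1-B is a uterine line, so peaks listed on chromosome Y are not read here as sites of a Y chromosome. Among those peaks, 188 of 252 CTCF summits (74.6%, 68.8 to 79.9) had a RAD21 summit within 200 bp, at a median distance of 6 bp. On the mitochondrial and unplaced sequences, 243 of 349 CTCF summits (69.6%, 64.5 to 74.4) did, at a median of 8 bp. Both distances are shorter than the 15 bp of the chromosomes used, and no cause was tested.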

How the results depend on the processing

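For the 8 main results 51 values were computed under other settings. The counting interval of the reported value held 28 of them, and 23 lay outside it. Shares of paired sites (CTCF and RAD21) were 76.6% and 83.01% with a window of 100 bp, 77.9% and 84.1% with 500 bp, 75.5% and 86.1% at a −log10 q of at least 5, 78.3% and 84.8% in the stronger 50% of each list, 76.4% and 82.8% by overlap of peaks, and 80.3% and 80.5% with the CTCF list held to the RAD21 list's size. The median distance was 17 bp in the stronger 50% and 12 bp with midpoints. With midpoints the share of pairs with RAD21 at the higher side was 49.97%. The width ratio was 1.125 at a −log10 q of at least 5 and 1.19 in the stronger 50%. The distance of the strongest minus the weakest group by CTCF signal, 2 bp, was 1 bp with 500 bp and 0.5 bp in the stronger 50%, whose weakest group is stronger by construction. The agreement of sides was 63.2% with midpoints, 68.4% without pairs within 2 reads of a list's highest count and 70.6% with both summits from the knockout. The ratio of pairs at 30 to 39 bp to those at 20 to 29 bp was 0.424 with midpoints. The cause was not tested where none is given. Alternatives for the agreement of sides and for this ratio, and the one by reads below the highest count, were chosen after seeing the data. Results along the CTCF motif and their alternatives were not run, as a genome of build hg19 was not used here. Summits rest on a median of 20 or 18 reads, which limits the placing of any single one. No paired analysis was possible because each group holds 1 library.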
